A study of Mus musculus with 24 samples.

Results

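Of the 23152 genes that could be followed through a day of mouse liver expression, 17 gene models that still carry a provisional symbol had a strong 24-h rhythm. Provisional symbols are those of the form Gm followed by a number, given to genes predicted from the genome, and those ending in Rik, given to cDNAs of the RIKEN collection. A gene was taken as strongly rhythmic where a cosine of 24 h fitted to its 24 arrays had a peak-to-trough range of at least 1 on the log2 scale, explained at least 0.45 of the variance (R squared) and where its mean log2 expression was at least 6. The genes were thus chosen by their fitted range, R squared and mean, so ranges and hours are given below as a description, with no test. There were 3016 provisional models among the genes, 578 of them with a mean of at least 6, and the 17 are 0.564% of the first and 2.94% of the second number. The same thresholds were met by 436 of all 23152 genes (1.88%) and by 419 named genes, which are 2.08% of the 20136 named genes measured and 4.12% of the 10182 with a mean of at least 6.

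The samples were livers of male mice, 13 weeks old, of a strain that the labels write as C56bl/6J, with free access to chow. They were taken at 8 zeitgeber times, ZT0 to ZT21 in steps of 3 h, where ZT0 is lights on (the labels do not give the hours of light). Each time has 3 arrays, numbered replicate 1 to 3, and no group was treated. The labels do not say that the replicates are separate animals, so the spread between arrays may be partly technical. All 10 hepatocyte markers read between 13.35 and 19.83 on the log2 scale, above 6.17, the 95th percentile of 1084 olfactory receptor genes that stands here for background. Also above it were 6 of 6 Kupffer cell, 5 of 5 endothelial and 5 of 5 stellate markers (up to 14.74), 2 of 5 biliary markers and 1 of 3 muscle markers. Of T and B cells 0 of 4 measured markers lay above it, of neutrophils 0 of 4, of pancreatic acinar cells 0 of 4 and of adipocytes 0 of 3. In whole liver, a change in the number of cells of a type and a change in RNA per cell cannot be told apart. Array medians were 6.44 to 6.51, and the mean correlation with the other arrays was 0.9802 to 0.9855 except for ZT0 replicate 1 (0.9678). Where that array was a gene's highest or lowest, the fitted range is therefore given without it too. Correlations between genes were computed only with it.

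The liver clock is a feedback loop in which the activators BMAL1 and CLOCK drive their own repressors, the PER and CRY proteins, through DNA elements called E-boxes. REV-ERB receptors and the PAR bZIP factors such as DBP add further elements, the REV-ERB/ROR element and the D-box, whose target genes peak at other hours. Rhythmic transcripts need not code for protein: long noncoding RNAs (lncRNAs) can start beside, or run antisense to, a coding gene. The clock genes give the scale of hours here: Nr1d1, which encodes REV-ERB alpha, peaked at 4.82 h, Dbp at 7.58 h, Per2 at 12.05 h, Cry1 at 16.92 h and Arntl, which encodes BMAL1, at 19.70 h.

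By the RefSeq annotation of the same mouse assembly (GRCm38.p6, which is mm10), 10 of the 17 are lncRNAs, 5 code for protein and 2 are transcribed pseudogenes. Among the 561 other provisional models with a mean of at least 6 the shares were 43.3% lncRNA, 35.7% protein coding, 7.49% transcribed pseudogene and 10.3% pseudogene not annotated as transcribed. The shares in the 17 were 58.8%, 29.4%, 11.8% and 0.0%. The label holds by symbol only for 4932438A13Rik, which the annotation also lists as Kiaa1109 and Tweek, the gene of a large lipid transfer protein. Each gene was measured by averaging over its probe sets, of which the 17 had a median of 6.0 probe sets against 3.0 for the other provisional models. Of their 192 probe sets, 182 peaked within 3 h of the gene's hour when fitted alone, and all probe sets did so in 11 of the 17 genes. The gene's hour is fitted to the mean of these same probe sets, so such agreement is partly built in. The count is also uneven: 83 of the probe sets belong to 4932438A13Rik and 34 to Gm3893, some of the latter with repeated values.

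Fitted peaks fell in an early and a late group. Of the 17, 8 peaked between 5.61 and 11.29 h and Gm19522 alone at 14.17 h, and 8 peaked between 18.33 and 23.96 h. Nearest to ZT9 and to ZT21 there were 4 genes each, and nearest to ZT3 there were 0. The 419 named genes past the same thresholds were most frequent nearest ZT21 (23.9%), ZT12 (18.4%) and ZT9 (18.1%) and least frequent nearest ZT3 (4.3%). Ranges ran from 1.02 to 3.28 with a median of 1.43, and the median of the named genes was 1.46. In all 17 the 3 arrays of the highest time lay above the 3 arrays of the lowest time, as in 57.4% of all genes when their own highest and lowest times are taken. The plot of peak hour against range places them among the named genes.

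**Figure D1:**
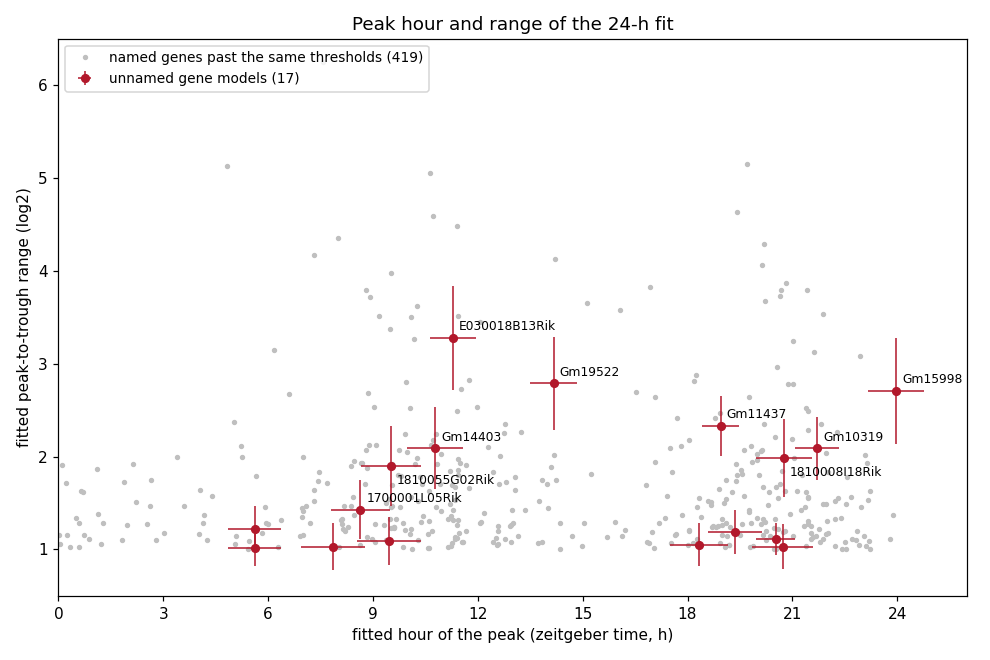
Fitted peak-to-trough range (log2) against the fitted hour of the peak (zeitgeber time in hours) for the 17 unnamed gene models (red, bars are standard errors of the fit on 24 arrays) and the 419 named genes past the same thresholds (grey). The red points lie at 5.61 to 14.17 h and at 18.33 to 23.96 h, with E030018B13Rik the highest at 3.28.

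The promoter windows of RefSeq, from 250 bases before to 50 bases after the annotated first base, were at hand for 13 of the 17 genes (15 windows, since 1810055G02Rik and 1810008I18Rik have a second start). They were searched on both strands for the E-box CACGTG, the noncanonical E-box CACGTT, the D-box TTANGTAA, the core TAGGTCA of the REV-ERB/ROR element, the cAMP response element TGACGTCA and the glucocorticoid response element. Among all 32851 windows of the same length, these letters occur in 7.15%, 4.68%, 2.32%, 2.61%, 1.79% and 0.0487%. The counts in the 15 windows were 2, 2, 2, 2, 1 and 0. A match is a description of letters and no site of binding. The 250 bases before the start are shown for 5 genes with a match there and for the gene with the largest range, E030018B13Rik, which has none, 5′ to 3′ on the strand of the gene, with matches in capitals.
Gm19619 (chr5:91283077-91283326, minus strand): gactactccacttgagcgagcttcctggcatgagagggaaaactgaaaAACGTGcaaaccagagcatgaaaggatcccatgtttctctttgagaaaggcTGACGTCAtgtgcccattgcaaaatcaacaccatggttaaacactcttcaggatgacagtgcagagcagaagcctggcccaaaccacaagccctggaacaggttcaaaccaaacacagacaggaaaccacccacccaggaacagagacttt
1700001L05Rik (chr15:83367298-83367547, minus strand): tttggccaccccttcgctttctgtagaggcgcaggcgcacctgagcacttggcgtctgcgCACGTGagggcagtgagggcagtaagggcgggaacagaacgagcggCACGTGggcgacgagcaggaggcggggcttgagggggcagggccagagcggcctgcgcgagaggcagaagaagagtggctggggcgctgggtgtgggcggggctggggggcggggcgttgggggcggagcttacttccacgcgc
E030018B13Rik (chr7:63916607-63916856, plus strand): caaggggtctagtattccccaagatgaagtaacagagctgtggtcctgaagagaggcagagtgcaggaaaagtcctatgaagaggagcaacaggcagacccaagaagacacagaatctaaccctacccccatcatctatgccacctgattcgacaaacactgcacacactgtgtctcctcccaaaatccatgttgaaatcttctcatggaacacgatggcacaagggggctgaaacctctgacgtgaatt
Gm19522 (chr16:42912071-42912320, minus strand): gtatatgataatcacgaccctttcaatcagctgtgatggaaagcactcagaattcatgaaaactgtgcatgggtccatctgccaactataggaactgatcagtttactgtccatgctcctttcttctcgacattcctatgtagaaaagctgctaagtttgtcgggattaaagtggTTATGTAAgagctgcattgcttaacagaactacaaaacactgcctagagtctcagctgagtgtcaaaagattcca
1810008I18Rik (chr7:65802787-65803036, plus strand): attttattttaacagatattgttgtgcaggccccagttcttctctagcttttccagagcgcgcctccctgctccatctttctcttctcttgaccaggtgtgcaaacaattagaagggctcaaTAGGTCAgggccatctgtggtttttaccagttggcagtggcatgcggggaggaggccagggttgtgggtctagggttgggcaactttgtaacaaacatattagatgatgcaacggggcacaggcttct
Gm15998 (chr3:89316496-89316745, plus strand): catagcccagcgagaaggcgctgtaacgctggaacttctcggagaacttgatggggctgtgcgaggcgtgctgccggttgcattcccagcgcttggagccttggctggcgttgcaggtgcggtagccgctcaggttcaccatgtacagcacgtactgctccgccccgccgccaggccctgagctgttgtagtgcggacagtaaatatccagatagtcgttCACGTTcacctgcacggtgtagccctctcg
Counting the annotated first base as 0, the capitals are a reversed noncanonical E-box at -202 to -197 and a cAMP response element at -151 to -144 in Gm19619. In 1700001L05Rik they are E-boxes at -190 to -185 and -144 to -139, in a window with 70.3% G and C (median of all windows 52.7%). In Gm19522 they are a D-box at -75 to -68, in 1810008I18Rik a REV-ERB/ROR core at -128 to -122, and in Gm15998 a noncanonical E-box at -30 to -25. The first window of 1810008I18Rik also has an E-box after the start, at 8 to 13, and its second window a D-box. The window of 4932438A13Rik has a reversed REV-ERB/ROR core at -202 to -196, counted from the start used for that window. The bases before that start end at 36863105, inside the gene's span, which begins at 36863063.

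The largest range was that of E030018B13Rik (also Gm1697; chromosome 7, 63916857 to 63920539), a protein-coding model. Its log2 values were 5.30, 5.72 and 5.14 at ZT0, 5.84, 5.74 and 6.29 at ZT3, 6.25, 7.61 and 8.70 at ZT6, 7.48, 9.32 and 8.82 at ZT9, 8.37, 8.85 and 9.17 at ZT12, 9.23, 6.38 and 8.61 at ZT15, 6.36, 6.41 and 6.33 at ZT18 and 8.60, 4.97 and 5.47 at ZT21. The arrays of ZT9 and ZT12 all lay above those of ZT0, ZT3 and ZT18, and replicate 1 at ZT21 stood far above the other two. The fitted range was 3.28 ± 0.56 (SE, 24 arrays), with the peak at 11.29 ± 0.65 h. The ZT0 arrays lay below the background percentile of 6.17, so no fold is given. All 3 probe sets had ranges of 3.15 to 3.53.

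E030018B13Rik lies inside the span of Klf13, which encodes a Krüppel-like transcription factor, on the other strand. Klf13 itself met the thresholds, with a range of 2.05 ± 0.28 and a peak at 9.96 h, 1.33 h before that of E030018B13Rik. Its mean was 6.54 ± 0.31 (SD, n = 3) at ZT0 and 8.70 ± 0.27 at ZT9. Across the 24 arrays the pair correlated with r = 0.79, and with r = 0.54 after each time's mean was subtracted. Here and below, this subtraction does not remove a difference in peak hour between replicates, so genes of like hour can still correlate after it. The named genes most like E030018B13Rik over the 24 arrays were Alpl (alkaline phosphatase, r = 0.88), the clock repressor Per2 (0.87) and St3gal5, which makes the ganglioside GM3 (0.86).

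Of the other genes with an early peak, Gm14403, an lncRNA (chromosome 2, 177498226 to 177512311), had the next largest range. It read 12.60, 12.16 and 12.63 at ZT9 and 9.86, 10.14 and 11.21 at ZT18, where the ZT9 arrays all lay higher. The range was 2.09 ± 0.44 with a peak at 10.78 h, and both probe sets had ranges of about that size (1.96 and 2.26). The gene lies in a cluster of zinc finger genes on chromosome 2. Zfp970, 19032 bases away and formerly Gm14420, had a range of 1.85 ± 0.29 and peaked at 11.21 h, and the pair correlated with r = 0.89 over the 24 arrays and 0.72 after subtraction of time means. Zfp972, further off in the cluster, correlated with r = 0.83. Neither probe set of Gm14403 repeats the values of a probe set of another gene. Only exact repeats were looked for, so signal from a similar transcript of the cluster cannot be told apart. Lonrf1 (r = 0.85) and Etfbkmt (0.84) came after Zfp970 among the most similar named genes.

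1810055G02Rik is a protein-coding model with no assigned function (chromosome 19, 3708293 to 3717882). It read 12.04, 12.42 and 11.24 at ZT9 and 9.92, 8.63 and 9.43 at ZT21, so all ZT9 arrays were higher. Its range was 1.90 ± 0.43 with a peak at 9.51 h. Lrp5, which encodes a coreceptor of Wnt signals and lies 21708 bases away, ran opposite to it, with a range of 1.46 ± 0.23, a peak at 21.37 h and r = -0.60 over the arrays. Chka, the choline kinase gene 133703 bases away, also peaked late (19.43 h, range 4.63, r = -0.64). Without ZT9 replicate 1 or 2, or ZT21 replicate 2 or 3, the gene no longer met the thresholds.

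1700001L05Rik, an lncRNA (chromosome 15, 83353847 to 83367297), carries the E-box pair shown above. It read 8.37, 8.28 and 8.57 at ZT9 and 7.04, 7.27 and 6.31 at ZT21, while replicate 1 at ZT6 was the highest array at 9.32. The range was 1.43 ± 0.32 with a peak at 8.64 h, and all 6 of its probe sets had a range of at least 1. Fitted by replicate number its range was 2.34, 0.39 and 1.74 for replicates 1, 2 and 3, and the limma test between numbers described below did not call it (unadjusted p = 0.0507, adjusted p = 0.949). Neither neighbour within 10 kb, Arfgap3 at 3472 bases (range 0.90, peak 9.68 h) or Pacsin2 at 8310 bases (range 0.35), met the thresholds.

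Gm826, a protein-coding model (chromosome 2, 160311393 to 160349052), was the member nearest to the R squared threshold at 0.456. It read 6.85, 6.82 and 7.46 at ZT9 and 5.83, 6.01 and 5.62 at ZT0, without overlap. All of its ZT0 arrays lay below the background percentile of 6.17. The range was 1.09 ± 0.26 with a peak at 9.45 h. Its 8 probe sets were not alike: their ranges ran from 0.32 to 2.51, and the brightest, with a mean of 11.61, had 0.67. The median over them gave 1.89. It missed a threshold in 13 of the 24 fits that leave out an array.

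Gm19619 and Gm11714, both lncRNAs, peaked earliest, at 5.61 h. Gm19619 (chromosome 5, 91257571 to 91283076), whose nearest measured named gene is that of the growth factor betacellulin (Btc, 74185 bases away), read 7.24, 7.22 and 7.27 at ZT3 and 6.63, 5.64 and 5.94 at ZT18. Its replicates 2 and 3 at ZT18 lay below the background percentile of 6.17. Its range of 1.02 ± 0.20 was the closest to the threshold of 1, and it missed a threshold in 7 of those fits. The median over its probe sets gave 0.91 and its brightest 0.62, both under the threshold. Gm11714 (chromosome 11, 107428250 to 107435689) read 8.56, 7.24 and 7.08 at ZT6 and 6.39, 5.93 and 6.18 at ZT15. Replicate 2 at ZT15 lay below the background percentile. Replicate 1 stood highest at ZT6, and the range was 1.22 ± 0.25. It lies inside Pitpnc1, the gene of a phosphatidylinositol transfer protein, on the other strand, and Pitpnc1 met the thresholds too with a range of 1.22 ± 0.27 and a peak at 8.15 h. The pair correlated with r = 0.47 over the arrays and 0.13 after subtraction of time means.

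Gm3893 is a transcribed pseudogene (chromosome 4, 42089373 to 42092930). It read 9.52, 9.76 and 9.92 at ZT12 and 9.04, 8.61 and 8.16 at ZT21. The range was 1.03 ± 0.25 with a peak at 7.86 h. Its 34 probe sets hold only 24 different series of values, since the others repeat a series exactly. Of the 34, 2 share their values with a probe set that has no gene symbol. The gene's mean counts the repeats, and no fit without them was made. It missed a threshold in 11 of the 24 fits that leave out an array.

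Gm19522 was the only member with a peak between 12 and 18 h. It is an lncRNA (chromosome 16, 42884370 to 42912070) inside the span of Zbtb20, the gene of a zinc finger transcriptional repressor, on the other strand. It read 9.57, 10.71 and 11.35 at ZT12 and 5.72, 8.16 and 6.63 at ZT0, with no overlap. The range was 2.79 ± 0.50 or 6.91-fold, peaking at 14.17 ± 0.68 h, and the 4 probe sets ranged from 2.42 to 3.34. ZT0 replicate 1, the lowest array at 5.72, lay below the background percentile of 6.17, so the fold rests in part on a value near background. Without that array the range was 2.47. Zbtb20 moved less, from 12.05 ± 0.16 (SD, n = 3) at ZT0 to 12.92 ± 0.02 at ZT12, with a range of 0.75 and a peak at 9.86 h, 4.31 h earlier. The named genes most like Gm19522 were Fgf1, which encodes a fibroblast growth factor (r = 0.90), Aco1, which encodes cytosolic aconitase (0.89), and Nomo1 (0.89).

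**Figure D2:**
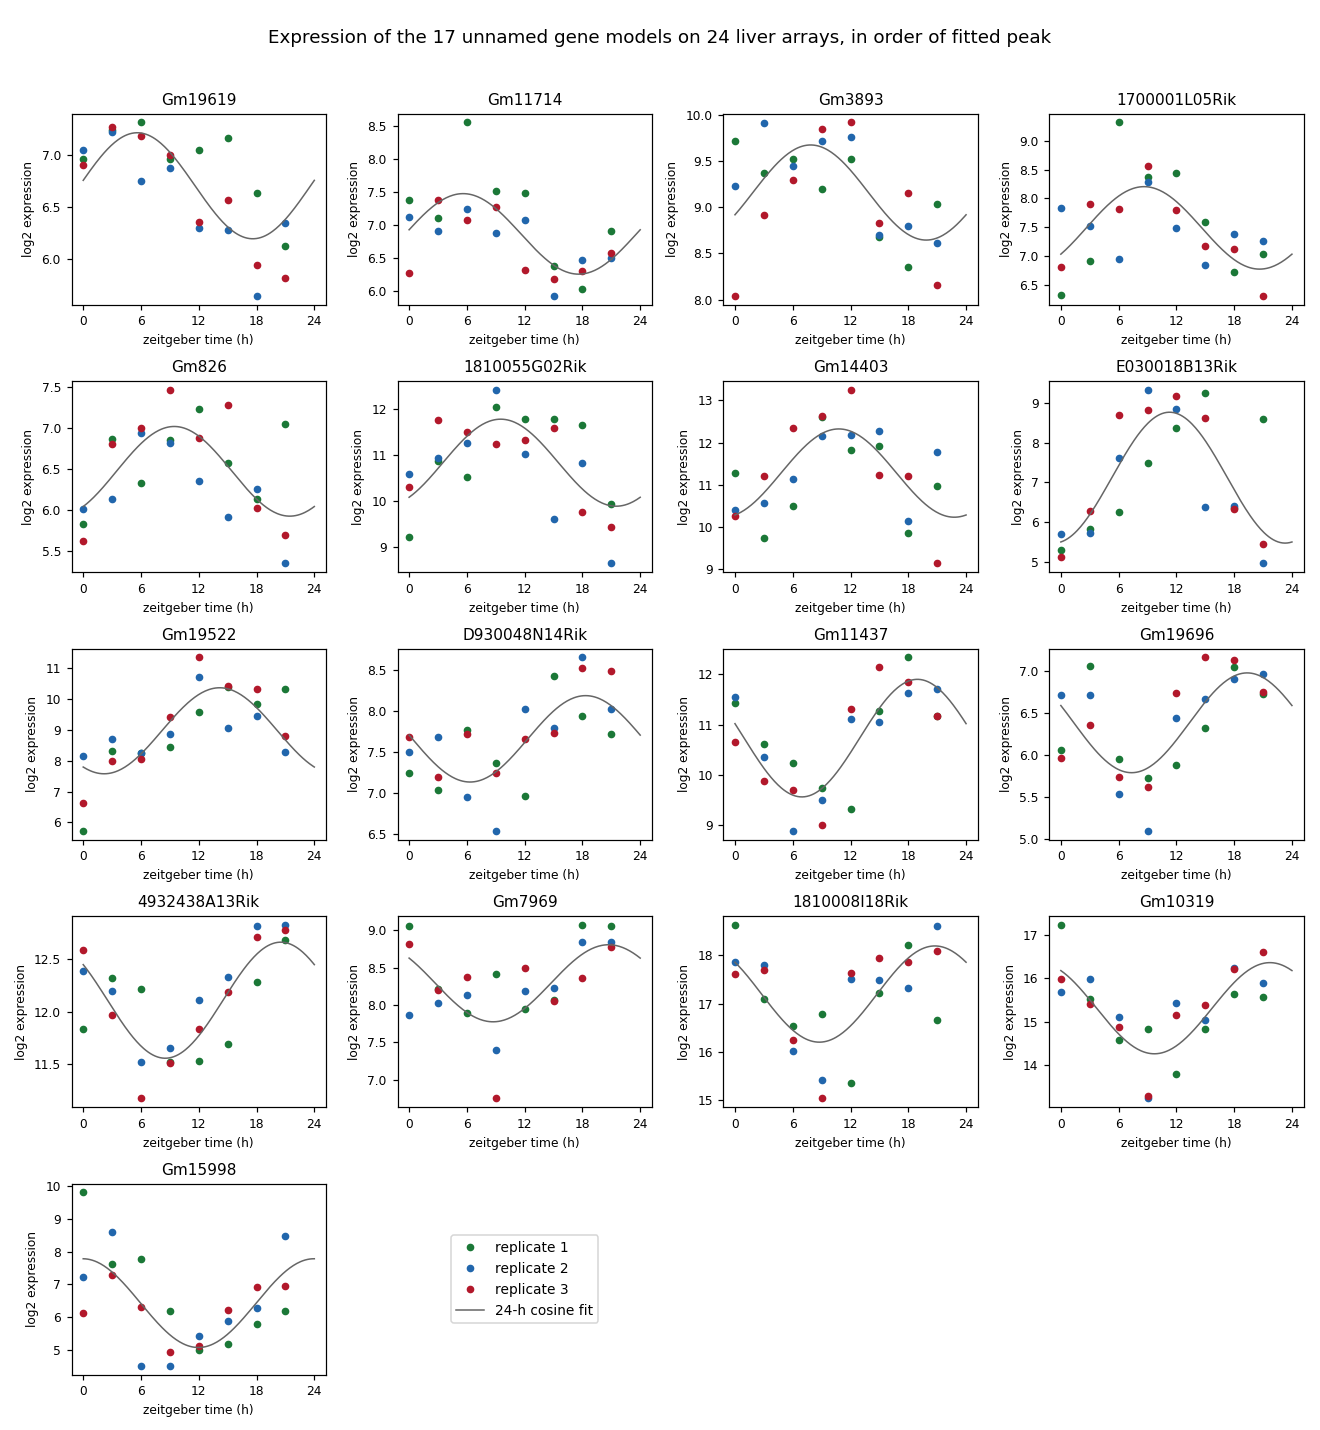
Log2 expression against zeitgeber time (hours) on 24 arrays for each of the 17 unnamed gene models, in order of fitted peak, with points coloured by replicate number and the 24-h cosine as a line. E030018B13Rik spans 4.97 to 9.32 and Gm11437 spans 8.89 to 12.33, and for both, an array of replicate 1 at ZT21 or at ZT12 lies far from the line.

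Among the genes with a late peak, Gm11437 (also AI463690; chromosome 11, 84148361 to 84167476) had the highest R squared, 0.72. This protein-coding model read 11.42, 11.55 and 10.65 at ZT0, 10.62, 10.36 and 9.89 at ZT3, 10.24, 8.89 and 9.70 at ZT6, 9.01 to 9.75 at ZT9, 9.33, 11.11 and 11.30 at ZT12, 11.26, 11.04 and 12.13 at ZT15, 12.33, 11.63 and 11.84 at ZT18 and 11.16, 11.70 and 11.16 at ZT21. The arrays of ZT15, ZT18 and ZT21 all lay above those of ZT3, ZT6 and ZT9. The range was 2.33 ± 0.32 or 5.04-fold, peaking at 18.95 ± 0.53 h, and all 8 probe sets had ranges of at least 1.72.

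Gm11437 lies inside Acaca, which encodes acetyl-CoA carboxylase alpha, the enzyme that makes malonyl-CoA for fatty acid synthesis, and runs on the other strand. The host gene did not share its course: Acaca was highest at ZT12 (12.99 ± 0.14, SD, n = 3) and lowest at ZT21 (11.79 ± 0.41), with a range of 0.73 ± 0.26, a peak at 11.92 h and r = 0.10 with Gm11437 over the arrays. After subtraction of time means r was 0.43. The named genes most like Gm11437 were Cutal (r = 0.93), the water channel gene Aqp8 (0.92, peak 20.18 h) and Dapk1, a kinase gene (0.91, peak 19.61 h).

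Gm19696, an lncRNA (chromosome 17, 84134017 to 84156428), peaked close by, at 19.35 h. It read 7.04, 6.90 and 7.13 at ZT18 and 5.72, 5.09 and 5.61 at ZT9, far apart. The ZT9 arrays lay below the background percentile of 6.17. The range was 1.19 ± 0.24, and 8 of its 11 probe sets had a range of at least 1. The brightest alone gave 2.04. Of the 136 pairs among the 17 genes, Gm19696 and Gm11437 were the most alike after subtraction of time means (r = 0.74, median of all pairs 0.05). Both peak at like hours, whereas the median is over pairs of all hours. Haao, 285036 bases away, which encodes an enzyme of tryptophan breakdown, followed Gm19696 more closely (r = 0.83) than the nearest gene Zfp36l2 (r = 0.00).

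D930048N14Rik is an lncRNA (chromosome 11, 51650954 to 51657681) whose start overlaps that of N4bp3 on the other strand. It read 7.94, 8.65 and 8.52 at ZT18 and 7.37, 6.54 and 7.25 at ZT9, without overlap, with a range of 1.05 ± 0.23 and a peak at 18.33 h. N4bp3 had a mean log2 of 5.55, below the background percentile, and a range of 0.27. The range of D930048N14Rik was 0.59 with the brightest of its 6 probe sets and 0.69 with their median.

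4932438A13Rik (chromosome 3, 36863063 to 37053033) was measured by 83 probe sets and had the smallest standard error. It read 12.69, 12.83 and 12.78 at ZT21 and 11.52, 11.65 and 11.51 at ZT9. The 3 arrays lay close together at these times (SD 0.07 and 0.08) but not at ZT6, where they read 12.22, 11.52 and 11.17. The range was 1.11 ± 0.17 with a peak at 20.52 ± 0.57 h. Alone, 79 of the 83 probe sets peaked within 3 h of that hour and 62 of these also had a range of at least 1.

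1810008I18Rik, an lncRNA (chromosome 7, 65803037 to 65806233), read 18.63, 17.87 and 17.62 at ZT0 and 16.79, 15.42 and 15.04 at ZT9. The ZT0 arrays all lay higher, and none of its 2 probe sets reached the upper end of the scale, 19.93. Its range was 1.99 ± 0.42 with a peak at 20.76 h. Without ZT0 replicate 1, the gene's highest array, the range was 1.89 and the peak at 20.53 h. The nearest named gene, Pcsk6, lies 55903 bases away and peaked at 12.47 h with a range of 0.52.

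Gm10319, a transcribed pseudogene (chromosome 6, 122136628 to 122150958), belongs to the murinoglobulin cluster, whose genes encode protease inhibitors that the liver secretes into plasma. It read 17.22, 15.68 and 15.99 at ZT0 and 14.84, 13.24 and 13.30 at ZT9. All ZT0 arrays were higher, with a range of 2.09 ± 0.34 and a peak at 21.71 h, and the range was 1.93 without ZT0 replicate 1. Mug-ps1, 25095 bases away, had a range of 2.26 ± 0.37 and peaked at 22.29 h (r = 0.89, and 0.69 after subtraction of time means). Mug2, 50660 bases away, had a range of 0.90 with a peak at 22.22 h. None of the 3 probe sets of Gm10319 repeats the values of a probe set of another gene, but only exact repeats were looked for. Signal from a similar transcript of the cluster cannot be told apart. Coq8a and Kynu, of ubiquinone synthesis and tryptophan breakdown, were as similar as Mug-ps1 (r = 0.90 each).

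Gm7969, an lncRNA in a cluster of zinc finger genes (chromosome 13, 67949751 to 67954507), read 9.05, 8.84 and 8.78 at ZT21 and 8.42, 7.40 and 6.75 at ZT9. The range was 1.03 ± 0.24 with a peak at 20.72 h. Its 5 probe sets hold 3 different series of values, since 2 series, with ranges of 0.44 and 1.89, occur in duplicate. The third had a range of 0.60. The gene's mean counts the repeats, so the series with 1.89 weighs more in its range, which is close to the threshold of 1. No fit without the repeats was made. The brightest probe set gave a range of 0.44.

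Gm15998 had the latest peak, 23.96 ± 0.80 h, close to lights on. This lncRNA (chromosome 3, 89316746 to 89320240) lies inside Efna3, an ephrin gene, on the other strand. It read 7.62, 8.61 and 7.28 at ZT3 and 4.99, 5.44 and 5.13 at ZT12, with no overlap. The arrays of ZT0 were far apart, at 9.81, 7.24 and 6.12. The range was 2.71 ± 0.57, and 2.32 without ZT0 replicate 1, the highest array. The ZT12 arrays lay below the background percentile of 6.17, so no fold is given. Efna3 lay near background (mean 4.77) with a range of 0.62 and a peak at 23.33 h. It correlated with Gm15998 by 0.77 over the arrays and 0.79 after subtraction of time means. Both correlations include ZT0 replicate 1 and were not computed without it. Efna1, another ephrin gene 35795 bases away, met the thresholds with a range of 1.55 ± 0.28 and a peak at 22.32 h (r = 0.72). The named genes most like Gm15998 were Retreg1, of the turnover of endoplasmic reticulum (r = 0.91), Gsap (0.88) and Echdc3 (0.85).

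**Figure D3:**
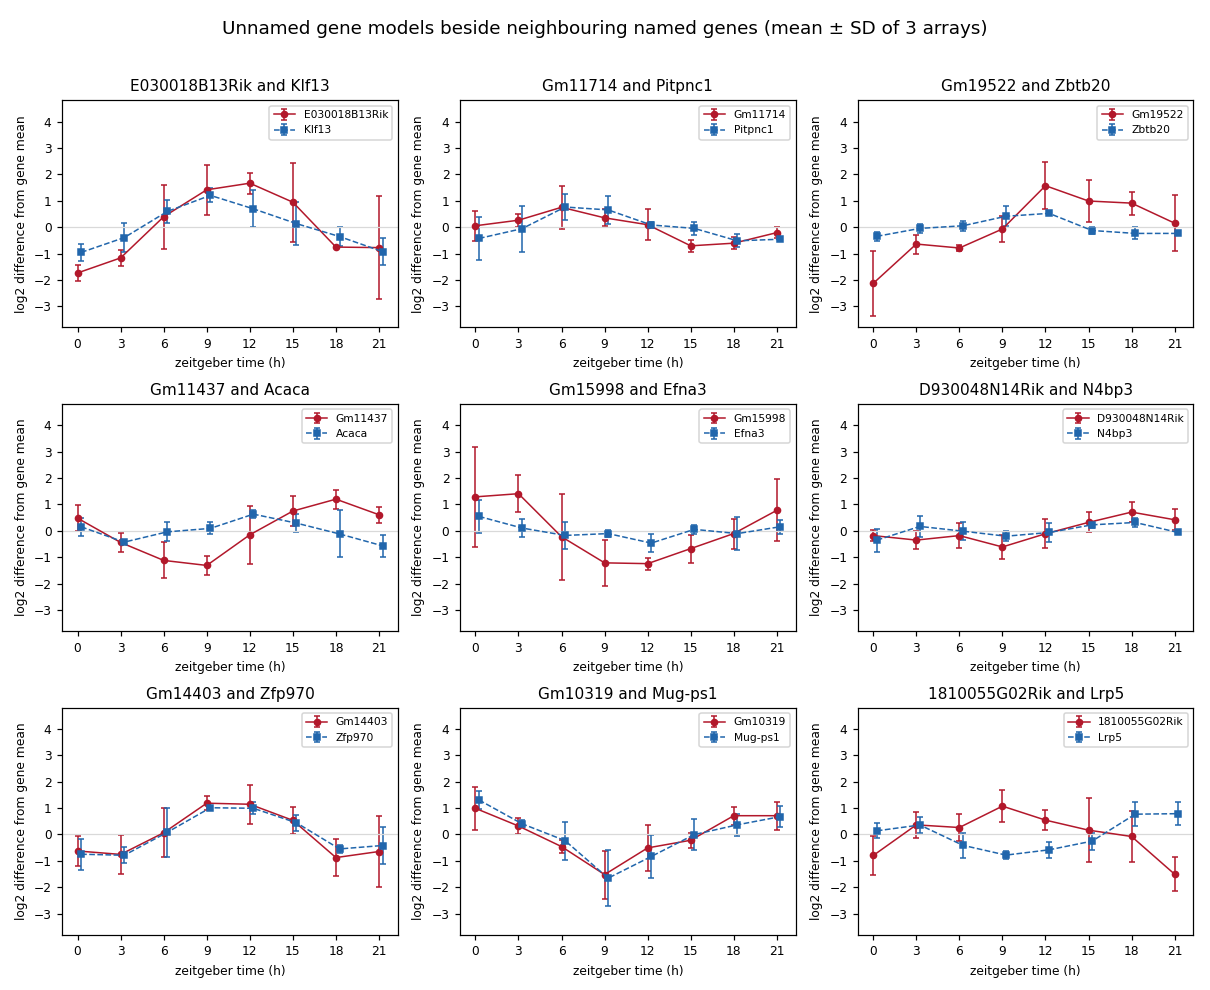
Difference of log2 expression from the gene's mean over the 8 times, against zeitgeber time (hours), for 9 unnamed gene models (red circles) and a neighbouring or overlapping named gene (blue squares), as mean and SD of 3 arrays. Gm14403 with Zfp970 and Gm10319 with Mug-ps1 run together, Gm11437 and Acaca peak at 18.95 and 11.92 h, and 1810055G02Rik and Lrp5 run opposite.

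Position was not used to choose the genes. Of the 17, 6 overlap a named gene that was measured (35.3%), against 196 of 550 other provisional models with a mean of at least 6 and a known position (35.6%). A measured named gene lay within 10 kb of 7 of the 17 (41.2%) and of 350 of the 550 (63.6%). A named gene that itself met the thresholds lay within 10 kb of 2 of the 17 (11.8%: E030018B13Rik with Klf13, Gm11714 with Pitpnc1), and of 13 of the 550 (2.36%). Within 50 kb the shares were 6 of 17 (35.3%) and 22 of 550 (4.0%). In 5 of these 6 pairs the peaks lay less than 3 h apart, and in the sixth, 1810055G02Rik and Lrp5, they were 11.86 h apart. The share of unrelated pairs that peak so close was not counted. Named genes past the thresholds are frequent at the hours where most of the 17 peak. Among the 5 are Gm14403 with Zfp970 and Gm10319 with Mug-ps1, where signal from a similar transcript cannot be told apart. All these counts are small and no test was made of them. The sources used here do not say whether the probe sets tell the strands apart, so signal from an overlapping transcript on the other strand cannot be told apart from that of the model.

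The 3 replicate numbers were pooled to choose the genes. Whether the rhythm differs between them was tested on the same 24 arrays, and the R squared threshold that chose the genes limits how large such a difference can be. A moderated F test (limma) of the products of replicate number with the 24-h terms called 0 of the 17 and 0 of all 23152 genes at an adjusted p of 0.05 (0.0%), with adjusted p-values of 0.949 to 0.978 for the 17. At an unadjusted p under 0.05 there were 4 of 17 and 1165 of all genes (5.03%). These 4 were E030018B13Rik (unadjusted p = 0.0105 in limma), Gm3893 (0.0121), Gm15998 (0.0457) and 4932438A13Rik (0.0486). Fitted to the 8 arrays of each number alone, the peak of replicate 1 came after that of replicate 2 in 14 of 17 genes (82.4%), by a median of 2.0 h, and after that of replicate 3 in 14 of 17, by a median of 1.96 h. The 419 named genes past the same thresholds showed this too, in 89.5% (median 1.83 h) and 90.2% (median 2.38 h). The peak of replicate 2 minus that of replicate 3 had a median of -0.42 h and was no more than 3 h in 16 of 17, the exception being Gm3893. Replicate 2 came later in 29.4% of the 17. In the 419 named genes it came later in 64.0%, with a median of 0.42 h, and their share within 3 h was not counted. E030018B13Rik peaked at 14.34 h on replicate 1 and 10.60 h on replicate 3, and Gm15998 at 1.98 h on replicate 1 and 22.54 h on each of the others.

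**Figure D4:**
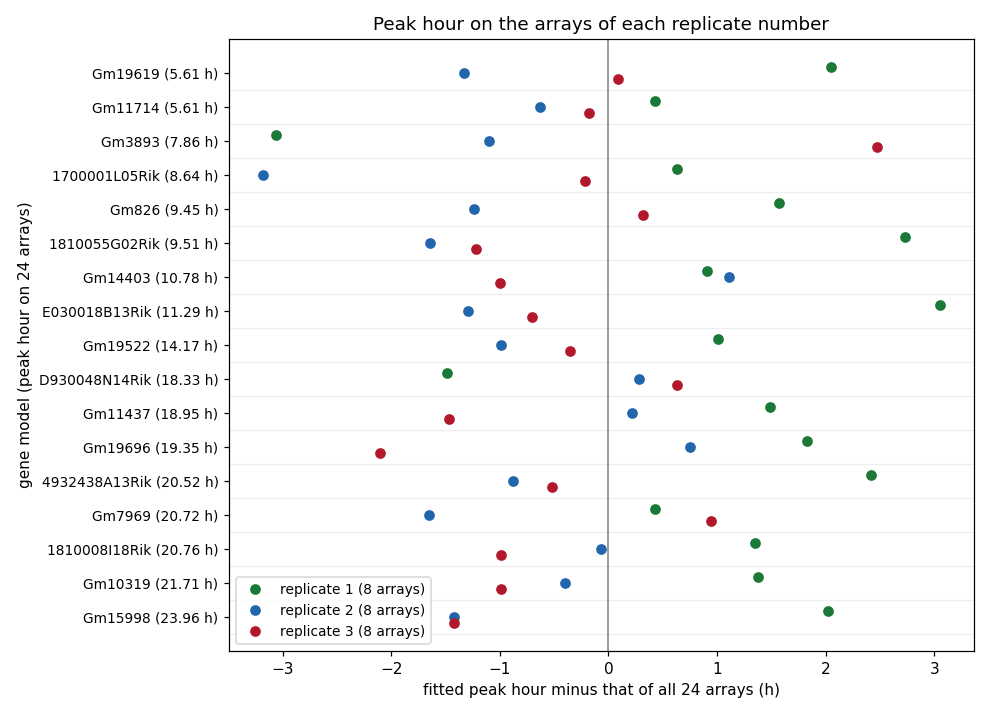
Fitted peak hour on the 8 arrays of each replicate number minus that of all 24 arrays (hours), for each gene model with its pooled hour in brackets. In 14 of the 17 the point of replicate 1 lies to the right of that of replicate 2, with a median gap of 2.0 h, and Gm3893, 1 of the 3 exceptions, has replicate 1 at -3.06 h.

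The shape of the rhythm was tested with a 12-h component, whose terms are independent of the 24-h terms that chose the genes, although the R squared threshold limits its size. None passed: limma called 0 of the 17 and 0 of 23152 genes (0.0%), with adjusted p-values of 0.808 to 0.993. At an unadjusted p under 0.05 there were 2 of 17 and 1410 of all genes (6.09%). The pair were Gm19696 (12-h range 0.57, unadjusted p = 0.0344 in limma) and Gm19619 (0.48, 0.0435).

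The provisional model nearest outside each threshold, whatever its distance, was taken from those that met the other thresholds. Gm16793 had a range of 0.98, Gm8883 an R squared of 0.443 and A930033H14Rik a mean of 5.75 (with a range of 2.21). Nearest inside were Gm19619 with a range of 1.02, Gm826 with an R squared of 0.456 and Gm19696 with a mean of 6.38.

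By the older symbols of the array's own annotation 37 genes would have been counted, since 20 of these models have since been named. Among them are the clock repressor gene Ciart (formerly Gm129), with a range of 3.72 and a peak at 8.91 h, and Nat8f6 (Gm11128, range 3.66, 15.13 h). Tedc2, of a centriole complex (1600002H07Rik, 2.53, 11.99 h), Etfbkmt (4833442J19Rik, 2.18, 10.72 h), Zfp970 (1.85, 11.21 h), Mrnip (1.38, 1.12 h) and Unc93a2 (1.06, 5.04 h) peaked before ZT12. Tcim (2.02, 14.19 h), Tmem267 (1.89, 14.08 h), Proser2 (18.05 h), Cutal (1.54, 19.10 h), Pxdc1 (1.86, 19.54 h), Lgalsl (1.81, 19.57 h), Shfl, an antiviral factor (20.26 h), Mfsd4b3-ps (1.15, 21.69 h), Trmt9b (1.17, 21.97 h) and Stra6l, of retinol uptake (1.78, 22.55 h), peaked after ZT12. The lncRNAs among the renamed were Ctcflos (1.79, 5.66 h), Acss2os (1.69, 16.82 h) and Mir22hg, the host of a microRNA (1.10, 4.24 h). The brackets give the fitted range on the log2 scale, then the hour of the peak (the hour alone for Proser2 and Shfl).

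The 17 were not equally stable. Of them, 9 met the thresholds with every array left out in turn and in all 8 other settings of the processing: Gm14403, E030018B13Rik, Gm19522, Gm11437, Gm19696, 4932438A13Rik, 1810008I18Rik, Gm10319 and Gm15998. When a gene was represented by its brightest probe set, 10 of the 17 met them, and those lost were Gm19619, Gm3893, 1700001L05Rik, Gm826, 1810055G02Rik, D930048N14Rik and Gm7969. On the 16 arrays of replicates 2 and 3, 14 did, without Gm11714, 1700001L05Rik and Gm7969. Without ZT0 replicate 1, 15 did, without Gm826 and Gm7969.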

How the data were processed

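Liver RNA from 8 zeitgeber times, 3 arrays each, was labelled from 300 ng for a whole-transcript Affymetrix array, per the labels' protocols. The authors deposited log2 values; how these were normalized is not given in the sources used here, and the log2 unit was read from the values. The submitters' processing notes list limma, Affymetrix Power Tools 2.10.0 and mm10. Of 269479 probe sets, the 233753 with 1 gene symbol were averaged per gene (23152 genes), after 2189 old symbols were updated from RefSeq. The fit was least squares of a 24-h cosine and sine on all 24 arrays, and moderated F tests came from limma 3.58.1 (R 4.3.3) with Benjamini-Hochberg adjustment over all genes, checked on simulated data. Precision is limited by the number of arrays. The members and lists were chosen with earlier results of these data known. Named one by one were the 3 largest ranges in each of 8 bins of peak hour, members beside rhythmic named genes, protein-coding members, members near a threshold, the 3 named genes most like each of the 6 largest ranges, and renamed models; Gm3893, Gm7969 and further neighbours were added after their values were seen. Alternatives were other summaries of probe sets, centring, quantile normalization, a dim filter, fewer arrays, a replicate block, other priors and other distances to neighbours.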

Additional observations from a re-analysis of the deposited data

How the results depend on the processing

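The number of unnamed gene models that met the thresholds, 17, was 13 to 20 when each of the 24 arrays was left out in turn, the lowest without ZT21 replicate 3. It was 16 to 20 with other summaries of probe sets, centring, quantile normalization or the dim filter, 18 with a replicate block, 28 when replicate 1 was left out altogether, and 37 under the array's own symbols. The count over all genes, 436, moved as well. It was 407 to 498 with an array left out and 433 to 536 with the other summaries, normalizations or the filter. With a replicate block it was 451, without replicate 1 it was 573, and under the array's own symbols 436. The cause of the rise to 28 was not tested. The replicate block left the count of 12-h calls at 0. The replicate numbers were not taken as pairing the arrays. Deviations from the time means correlated over 0.1 in 9 of the 84 pairs of arrays with the same number (median -0.032, from -0.34 to 0.41). A shift of hour shared by the arrays of a number can give correlations of either sign. This median therefore cannot show whether there is such a shift, and the later peaks of replicate 1 are given above. Neither the 12-h test nor the test between replicate numbers called any of the 17 under its 34 and 32 alternatives, with lowest adjusted p-values of 0.462 and 0.522 in limma. The count with a rhythmic neighbour, 2, was 2 in every alternative but 50 kb, where it was 6. Fitted ranges moved by more than the spread within times in 6 of 544 cases, and 0 peak hours moved by 3 h or more. The 6 were Gm826 with the median probe set (1.89) and, with the brightest, Gm19619 (0.62), D930048N14Rik (0.59), Gm11437 (3.09), Gm19696 (2.04) and Gm7969 (0.44).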
